A study of Saccharomyces cerevisiae with 2 samples.

Results

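The 18S rRNA and the first internal transcribed spacer (ITS1) form the 5′ part of the deposited 35S pre-rRNA table of Puf6 contacts in budding yeast. They were chosen by position alone. The table starts at the first nucleotide of the 18S rRNA and lacks the 5′ external transcribed spacer, so that spacer was not examined. The 18S rRNA takes nucleotides 1 to 1800 of the table and ITS1 takes 1801 to 2161, together 2161 of its 5947 nucleotides. The study asked where the ribosome assembly factor Puf6 touches pre-rRNA in vivo and used UV cross-linking and analysis of cDNA (CRAC). The Saccharomyces cerevisiae cells carried Puf6 with a C-terminal His6-TEV-ProtA (HTP) tag at its genomic locus, were grown in YPD medium to mid-log phase and were irradiated in vivo. There was a single condition with 2 biological replicates, and the table holds 1 library without naming the replicate, so no spread between replicates can be given. No library from cells without tagged Puf6 was analysed here, so a contact of Puf6 and RNA carried through the purification cannot be told apart.

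In growing yeast, a long precursor holding the 18S, 5.8S and 25S rRNAs is cut apart in the nucleolus. The 18S rRNA goes into the small 40S subunit, while the 5.8S and 25S rRNAs go into the large 60S subunit. ITS1 lies between the 18S and 5.8S rRNAs, and the cuts within it separate the precursors of both subunits. Its remains are then trimmed away. Puf6 belongs to the Pumilio (PUF) family of RNA-binding proteins and is known as a nucleolar factor of the 60S subunit. The 18S rRNA is therefore not part of the particle that Puf6 helps to build, and ITS1 is the spacer where the paths to both subunits part.

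A hit is a sense cDNA that covers a nucleotide, and a deletion is a cDNA in which that nucleotide was skipped. Reverse transcriptase often skips a base where a piece of cross-linked protein remains, so deletions place a contact more closely than hits. The deletion rate is deletions divided by hits. Deleted cDNAs were taken as part of the hits, since the hits were below those of both neighbours at 0 of the 5 nucleotides with at least 3 deletions. Of all 49 deleted nucleotides of the 18S rRNA and ITS1 2 were below both neighbours, nucleotides 189 and 2055, each by 1 hit and each with 1 deletion. Of 1316148 cDNAs in the library 241334 were mapped, and counting on this RNA was limited to 5000. A cDNA covered 61.7 nucleotides on average. Intervals are exact Clopper-Pearson 95% intervals and cover counting error only.

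The stretches below carry most of the deletions in the 18S rRNA. They are printed as RNA, 5′ to 3′, as the deposited table and the R64 genome have them, with U written for T, and the most deleted base is in capitals together with any equal bases next to it. Loss of any base of such a run leaves the same cDNA, so its deletions cannot be told apart by position. The first is the highest peak of hits (18S 295 to 341, chrXII:457392-457438, minus strand of R64), the second holds the conserved loop of helix 18 (552 to 592, chrXII:457141-457181), the third is the peak in the 3′ part (1341 to 1381, chrXII:456352-456392) and the fourth is a smaller site (211 to 251, chrXII:457482-457522).
U335: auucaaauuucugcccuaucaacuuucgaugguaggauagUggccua
C572: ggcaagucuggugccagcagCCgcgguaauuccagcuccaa
U1361: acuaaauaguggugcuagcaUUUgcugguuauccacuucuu
U231: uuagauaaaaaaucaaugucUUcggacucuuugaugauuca

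All 4 lie in the exon of the gene RDN18-1, which runs from 455933 to 457732 on the minus strand of chromosome XII. The next annotated copy, RDN18-2 at 465070 to 466869, differed at 0 nucleotides, and ITS1-2 at 464709 to 465069 likewise did not differ from ITS1-1 at 455572 to 455932. The cDNAs therefore cannot be assigned to a copy.

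The 18S rRNA was thinly covered. It held 18405 hits, 5.96% of those in the table, on 30.3% of the nucleotides. The hits ranged from 0 to 104 per nucleotide, with a median of 5 and quartiles of 2 and 13, and the mean was 10.2. ITS1 held 2886 hits, 0.935% of the total on 6.07% of the nucleotides, and ranged from 0 to 29 with a median of 5. At 61.7 nucleotides each, these hits amount to about 298 cDNAs on the 18S rRNA and 46.8 on ITS1. The 5.8S rRNA, directly downstream, had a median of 118 hits. The 25S rRNA without its main peak and its last 100 nucleotides, called the 25S background here, had a median of 11. Its mean was 25.8 and its hits ranged from 1 to 1012, so highly covered nucleotides remain in it. They weigh most in its pooled rate. The stretch left out as the main peak spans 100 nucleotides of the 25S rRNA, from helix 66 into helix 69.

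The coverage of the 18S rRNA came in separate blocks. Its first 600 nucleotides, 33.3% of its length, took 68.4% of its hits and 65 of its 87 deletions. The highest window of 100 nucleotides, 301 to 400, had a mean of 44.4 hits, with 24.1% of the hits of the 18S rRNA and 39.1% of its deletions. The 3′ part from 1301 to 1400 stood out as a smaller block with a mean of 18.8 hits and 7 deletions. The 700 nucleotides from 601 to 1300 had a mean of 3.55 hits, and the last 150 nucleotides had a mean of 1.29.

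**Figure D1:**
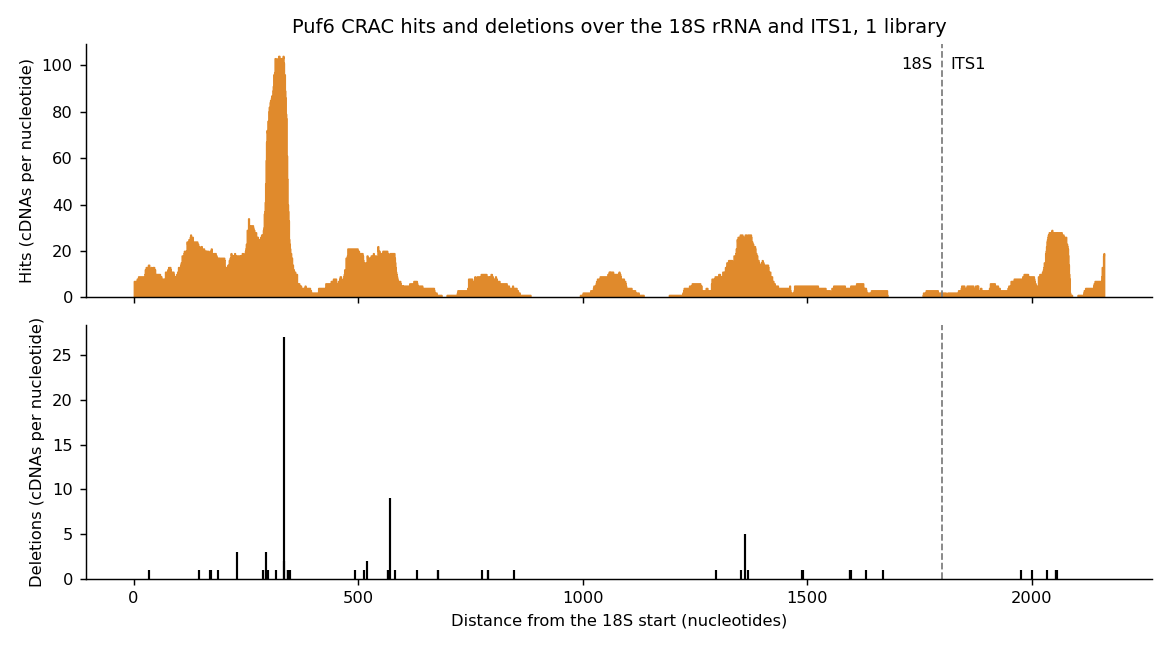
Hits (top) and deletions (bottom), both in cDNAs per nucleotide, against the distance from the 18S start in nucleotides, for 1 library. The dashed line marks the end of the 18S rRNA. Hits reach 104 near nucleotide 323, smaller blocks lie near 1351 and in ITS1, and the tallest deletion bar, 27, stands at 335.

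Parts of both regions had no hit at all. In the 18S rRNA 259 nucleotides (14.4%) had 0 hits and in ITS1 13 did, and no nucleotide of the 5.8S rRNA, the second spacer (ITS2) or the 25S rRNA was at 0. The longest such stretches were 884 to 994 with 111 nucleotides, 1679 to 1757 with 79 and 1136 to 1192 with 57. The window from 901 to 1000 was the lowest, with a mean of 0.06. The depth does not show that these stretches were free of contacts, since a count of 0 among 5000 cDNAs allows a share of up to 0.06%. This limit and the other limits given for a count of 0 are 3 counts of the total.

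The 5 highest peaks of the 18S rRNA, at least 50 nucleotides apart, were uneven. A323 had 104 hits. A256 had 34 hits, G127 and G1351 had 27 each, and A544 had 22. The stretch around A323 with at least 50% of its hits ran over 47 nucleotides, less than the mean length of a cDNA, and held 23.3% of all 18S hits and 32 deletions. Coverage rose there from 30 hits at 290 to 103 at 315 and stayed between 101 and 104 up to G334. It then fell to 61 at 341 and 33 at 345. Around G1351 the stretch at 50% of the peak ran from 1321 to 1409, and around G127 from 105 to 202.

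Among the 18S and ITS1 nucleotides with at least 20 hits, U335 had the highest deletion rate. It was deleted in 27 of 96 hits, 28.1% (19.4 to 38.2%), which is 27 of the 87 deletions of the 18S rRNA at 1 nucleotide (chromosome XII, 457398). Its neighbours were nearly free of deletions. G334 had 2 in 101 hits, and A333 and G336 had 0 in 104 and 96. Within 30 nucleotides on both sides, U335 left out, the rate was 0.180% (0.0725 to 0.371%). U335 is flanked by G on both sides, so its deletions have 1 placement only. It lies at the 3′ edge of the plateau, where the hits begin to fall.

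C572 was deleted in 9 of 19 hits, 47.4% (24.4 to 71.1%). Its interval overlaps that of U335, so the order of these rates is not resolved at this depth. C572 and C573 form a run, and the deletions, all placed at the first C, could belong to either. Both lie in the loop of helix 18 (571 to 579), a conserved element of the 18S rRNA close to the mRNA on the mature subunit. All 9 nucleotides of this loop had 19 hits, and the other 8 had no deletion. After nucleotide 580 the hits fell, to 10 at 585 and 5 at 595, so C572, like U335, lies near the 3′ end of its block. The flanking 30 nucleotides on both sides had 4 deletions in 898 hits, 0.445% (0.121 to 1.14%).

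U1361 was deleted in 5 of 26 hits, 19.2% (6.55 to 39.4%), and is the first base of a run of UUU. Hits around it stayed at 26 or 27 from 1356 to 1366, so this site lies inside its block and not at an edge. Its flanks had 2 deletions in 1366 hits. U231 was deleted in 3 of 18 hits, 16.7% (3.58 to 41.4%), with 0 deletions in the 1141 hits of its flanks (0 to 0.323%). C294, on the 5′ slope of the highest peak, was deleted in 3 of 49 hits, 6.12% (1.28 to 16.9%).

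**Figure D2:**
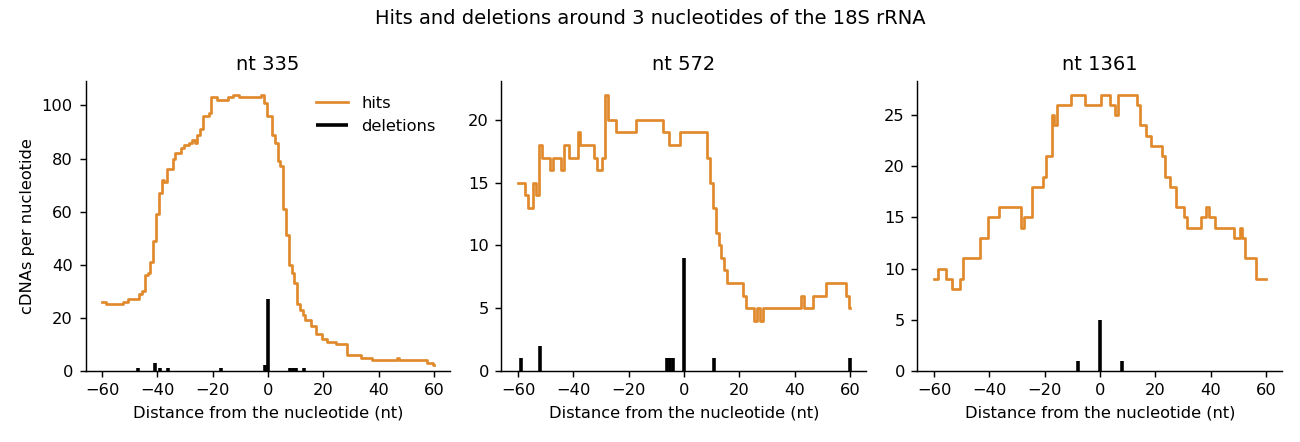
Hits (orange) and deletions (black) in cDNAs per nucleotide within 60 nucleotides of U335, C572 and U1361, for 1 library, each panel with its own vertical scale. Hits fall just after U335 (96 hits) and C572 (19 hits), and U1361 (26 hits) lies within its block.

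These 5 nucleotides held 47 of the 87 deletions of the 18S rRNA. A520 and G334, with 2 deletions each, came next, and 36 nucleotides had a single deletion. Single deletions at 3 adjacent nucleotides were found at 343 to 345, 566 to 568, 1595 to 1597 and, in ITS1, 2054 to 2056. The pileup does not say whether such neighbours were lost from the same cDNA.

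**Figure D3:**
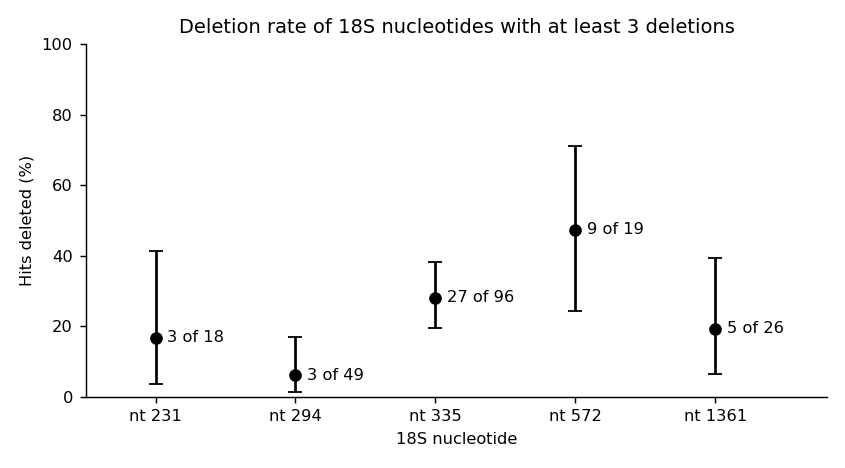
Deletion rate in percent of the hits for the 5 nucleotides of the 18S rRNA with at least 3 deletions, for 1 library. Points are the rates with deletions and hits beside them, and bars are exact Clopper-Pearson 95% intervals. C572 and U335 have the highest rates, 47.4% and 28.1%, with overlapping intervals.

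Across the whole table, 6.43% of the covered nucleotides had at least 1 deletion. The shares were 2.79% in the 18S rRNA (43 of 1541), 1.72% in ITS1 (6 of 348) and 4.88% in the 25S background (156 of 3196). Coverage differed between these regions, and a nucleotide with more hits has more chances to show a deletion. Of the nucleotides with at least 10 hits, 0.738% of the table had at least 10% of them deleted. In the 18S rRNA 6 of 589 did, 1.02%, and in the 25S background 8 of 1793, 0.446%. In ITS1 0 of 80 did, which allows a share of up to 3.75%. The 6 of the 18S rRNA include A520 with 2 deletions in 18 hits and G775 with 1 in 10. The 25S background leaves out the main peak and the last 100 nucleotides, whereas the 18S rRNA kept U335 and C572. Among the 22 nucleotides of the table that met both limits, C572 ranked 1 and U335 ranked 4 by rate. These ranks do not weigh depth, and C572 had only 19 hits. The U at 4768 of the table, in the main peak of the 25S rRNA, ranked 8 with 417 deletions in 2213 hits, 18.8%.

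The pooled deletion rate of the 18S rRNA was 0.473% (0.379 to 0.583%), from 87 deletions in 18405 hits. In the 25S background it was 0.303% (0.267 to 0.343%), from 250 deletions in 82510 hits. The odds ratio was 1.56 (1.21 to 2.0, p = 0.000516 by a two-sided Fisher's exact test within this library, 0.00103 after Benjamini-Hochberg adjustment over 4 comparisons). Hits at neighbouring nucleotides share cDNAs, so this and the following exact tests overstate the precision. The difference rested on few nucleotides. Without the most deleted nucleotide of each region the odds ratio was 1.12, and without U335 and C572 it was 0.920, in the opposite direction. Against the whole 25S rRNA, main peak included, the 18S rate was the lower one, 0.473% against 0.618%, with an odds ratio of 0.764 (adjusted exact p = 0.0282).

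In ITS1 the rate was 0.208% (0.0763 to 0.452%), from 6 deletions in 2886 hits. The 18S rate was above it by an odds ratio of 2.28 (1.0 to 6.39, exact p = 0.0471, adjusted 0.0629), which did not pass the threshold of 0.05 after adjustment. ITS2, without the pair of nucleotides that the study marks as a contact site, had 30 deletions in 8171 hits, 0.367%. The odds ratio of ITS1 to ITS2 was 0.565 (0.192 to 1.38, exact p = 0.254, adjusted 0.254), an interval that holds both lower and higher rates in ITS1. All of ITS2, with that pair, had 57 deletions in 8348 hits, 0.683% (0.518 to 0.884%). Against it the ITS1 rate was lower, with an odds ratio of 0.303 (adjusted exact p = 0.00281). This comparison was chosen after seeing the data and puts back a pair already known as a contact site. The U at 2429 of the table, in that pair, held 27 of the 57 deletions.

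Deletions fell most often at U in these regions. U was deleted in 56 of 6679 hits, 0.838% (0.634 to 1.09%), C in 21 of 4070, 0.516% (0.320 to 0.788%), A in 12 of 5700, 0.211% (0.109 to 0.367%), and G in 4 of 4842, 0.0826% (0.0225 to 0.211%). For U against the other bases the odds ratio was 3.33 (2.16 to 5.20, exact p = 1.36e-08, adjusted 5.44e-08). U335 alone gave 27 of these 56 deletions. Leaving it out lowered the rate at U to 0.441% (0.295 to 0.632%) and the odds ratio to 1.74 (adjusted exact p = 0.0629). Likewise, C572 gave 9 of the 21 deletions at C. Without U335 and C572 the rate at C was 0.296% (0.153 to 0.517%), an interval that overlaps that of A. In ITS1, where 33.5% of the nucleotides are U, 4 of the 6 deletions were at U, among 930 hits there. In the 18S rRNA, with 28.3% U, 52 of the 87 were, among 5749 hits.

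PUF proteins are known for binding UGUA in mRNAs, and the short motifs UUGU, UGUA and AGUG were counted on the RNA strand of both regions. UUGU was found at 12 sites in the 18S rRNA and 4 in ITS1, of 41 in the table, with 2 deletions and 0 deletions. UGUA had 6 and 1, of 20, with 1 deletion and 0. In the 18S rRNA the rates were 0.525% of 381 hits for UUGU and 0.446% of 224 hits for UGUA. Both were near the pooled 18S rate of 0.473%. UUGU and UGUA overlap at 501 to 505, 1551 to 1555, 1627 to 1631 and 1929 to 1933. The single deletion at U1630 lies in such an overlap and is counted under both motifs. The median hits per nucleotide of UUGU and UGUA in the 18S rRNA were 5 and 7, beside the median of 5 over the whole 18S rRNA. U335 lies in AGUG, which was found 8 times in the 18S rRNA and once in ITS1, of 33. AGUG had been tested in an earlier report on these data and U335 lies in it, so its counts are a description. The AGUG at 333 to 336 held 29 of the 31 deletions at AGUG in the 18S rRNA. The AGUG at 1348 to 1351 was covered by 26 or 27 hits with 0 deletions, and the one at 80 to 83 by 11 to 13 hits with 0. The AGUG at 1296 to 1299 and that at 1667 to 1670 each had 1 deletion, at the U as in U335, in 9 and 3 hits. Those at 464 to 467, 762 to 765 and 1166 to 1169 had 0 deletions in at most 8, 9 and 0 hits. The AGUG in ITS1 had 6 hits and 0 deletions. A match says only that these letters occur there.

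ITS1 had its own block of hits. The stretches below show the nucleotide where coverage dipped before it (ITS1 192 to 232, chrXII:455701-455741, minus strand of R64, with the nucleotide of the dip in capitals) and the block itself (ITS1 213 to 289, chrXII:455644-455720, with deleted nucleotides in capitals).
ITS1 dip: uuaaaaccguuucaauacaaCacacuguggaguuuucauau
ITS1 block: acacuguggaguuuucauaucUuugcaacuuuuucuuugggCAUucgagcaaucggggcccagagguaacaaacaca

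Upstream of the dip the hits were low, with a mean of 4.72 over the first 200 nucleotides of ITS1 and a local peak of 10 at nucleotide 183 of ITS1. At nucleotide 212 of ITS1 (2012 in the table) 1 cDNA was left, against 10 hits 21 nucleotides before it. The hits then stood at 5 on the next nucleotide and 9 at 2015, and climbed to the highest value in ITS1, 29 at its nucleotide 245 (2045). The cuts in ITS1 are known as A2 and A3, and the dip was not assigned to either because the sources used here do not place them. From 2013 to 2089 the mean was 20.4, and these 77 nucleotides, 21.3% of ITS1, held 54.3% of its hits and 4 of its 6 deletions. Its 3′ edge was steep, with 26 hits at 2076, 18 at 2081, 2 at 2085 and 0 from 2090 to 2102. None of its nucleotides had more than 1 deletion. With 24 hits at U2034 and 27 or 28 at 2054 to 2056, single deletions amount to rates of 4.17% and 3.57 to 3.70%, and no nucleotide of ITS1 stood out as U335 did in the 18S rRNA.

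The ends of both regions were covered differently. The first nucleotide of the 18S rRNA had 7 hits and 0 deletions, and no counts were available upstream of it. The 18S 3′ end, where ITS1 is cut off late in maturation, was crossed by few cDNAs, with 2 hits on both its last nucleotide and the first of ITS1. Over 10 nucleotides on each side the means were 2 and 1.8, a ratio of 0.9, so there was no step at this end, but with so few cDNAs a step could not have been detected. At the other end the hits rose from 7 at 2150 to 19 on the last nucleotide of ITS1 and 25 on the first of the 5.8S rRNA. The means over 10 nucleotides were 11.1 and 26.7, a ratio of 2.41. The rise began within ITS1, with 7 hits at 2155 and 13 at 2157, and went on to 43 at 2173 in the 5.8S rRNA. The sequence across this end is printed with the 5.8S rRNA in capitals. It covers ITS1 342 to 361 and the first 20 nucleotides of the 5.8S rRNA (chrXII:455552-455591, minus strand).
ITS1 and 5.8S: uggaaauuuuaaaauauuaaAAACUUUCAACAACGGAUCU

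**Figure D4:**
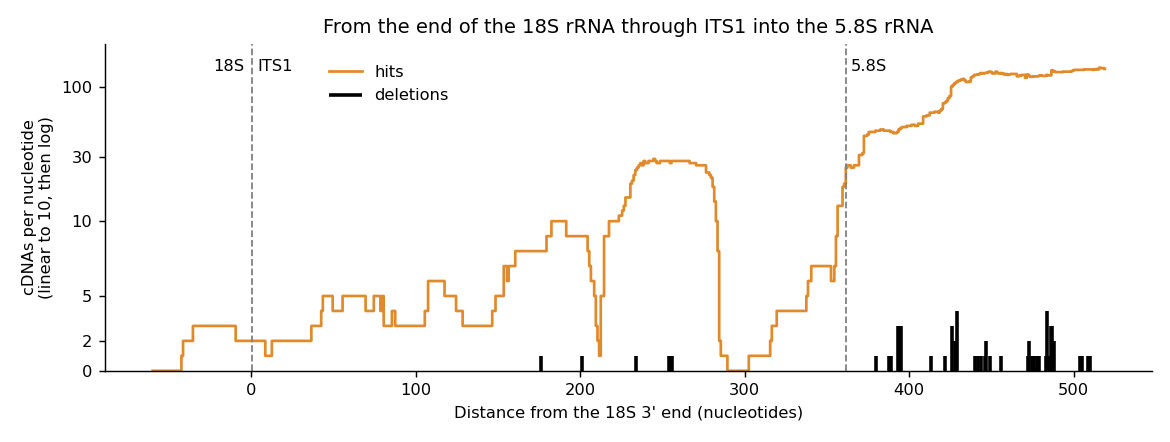
Hits (orange) and deletions (black) in cDNAs per nucleotide against the distance from the 18S 3′ end in nucleotides, for 1 library, on an axis that is linear up to 10 and logarithmic above. Dashed lines mark the start and end of ITS1. Hits dip to 1 at nucleotide 212 of ITS1, reach 29 at 245, fall to 0 at 290 and rise into the 5.8S rRNA.

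Other landmarks of the mature 18S rRNA had little signal. The stretch of the decoding site that was found by its motif ACACCGC (1631 to 1639) had 2 or 3 hits and 0 deletions. Other parts of that site were not looked up. U1191 in the loop of helix 31, which lies at the P-site tRNA on the mature subunit, had 0 hits. The pair of dimethylated A in helix 45 near the 3′ end, A1781 and A1782, had 3 hits each and 0 deletions. At this depth a contact at these landmarks could not have been detected.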

How the data were processed

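Reads were aligned by the authors with NovoAlign 2.07 to the yeast reference R64, and the table was made with pyPileup, a module of pyCRAC 1.42. The deposited counts are whole numbers of sense cDNAs that cover each nucleotide, and of cDNAs with a deletion there, not scaled to depth. Per the file headers, counting on this RNA was limited to 5000 cDNAs, only deletions were recorded as mutations and no threshold was set on alignment quality. How the 5000 were taken, how reads were placed among rDNA copies and whether PCR duplicates were removed are not given in the sources used here. Shares therefore refer to the counted cDNAs, and PCR copies may be counted more than once. The separate 5S and 25S tables and the substitution column were not used.

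Region limits came from the R64 annotation, whose sequence matched the table at every nucleotide. Rates were compared by two-sided Fisher's exact tests, and intervals of rates are Clopper-Pearson. Interval, test and peak finder were tested on simulated data. The simulated deletions were independent between nucleotides at a uniform rate per region. Those checks therefore do not cover hits that share cDNAs or deletions gathered at single sites. Named were the 5 highest peaks of the 18S rRNA and the 3 highest of ITS1 at least 50 nucleotides apart, nucleotides with at least 3 deletions, the ends of both regions, the highest and lowest windows of 100 nucleotides, and landmarks found by short conserved motifs. Deletion neighbours, zero stretches and the ITS1 dip were named after their values were seen. Members and lists were chosen with earlier results of these data known. Alternatives changed the nucleotides counted, the background, the window and the minimum of hits. The software was scipy 1.17.1 and pandas 2.3.3 with numpy 2.4.6 under Python 3.11.15, and matplotlib 3.10.9 for plots.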

Additional observations from a re-analysis of the deposited data

How the results depend on the processing

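The higher deletion rate of the 18S rRNA than of the 25S background rested on few nucleotides. The odds ratio of 1.56 was 1.91 with nucleotides of at least 20 hits only. It fell to 1.12 (adjusted p = 0.454, Fisher's exact test) without the most deleted nucleotide of each region and to 1.21 (adjusted exact p = 0.254) without the 30 nucleotides on both sides of U335 and U335 itself. It turned to 0.920 (adjusted exact p = 0.653) without U335 and C572, an alternative chosen after seeing the data, and to 0.764 (adjusted exact p = 0.0282) against the whole 25S rRNA, whose main peak holds most of its deletions. Against ITS1 the odds ratio stayed above 1, between 1.34 and 2.28, and did not pass the threshold. ITS1 against ITS2 turned from 0.565 to 1.10 with nucleotides of at least 20 hits only, and was 0.303 (adjusted exact p = 0.00281) against the whole of ITS2, an alternative also chosen after seeing the data. U against the other bases fell from 3.33 to 1.74 (adjusted exact p = 0.0629) without U335, and was 2.30 to 5.73 under the other alternatives that kept neighbouring nucleotides.

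Counting 1 nucleotide in 60, so that few cDNAs count more than once, left so few deletions that 27 of 57 phases with a deletion had none on one side for the 18S rRNA against the 25S background, and 30 of 35 for U. The median odds ratios were 0.409 and 0, and for the 18S rRNA against ITS1 the median was not finite, so this alternative says little. The mean of 10.2 hits per 18S nucleotide compares with a median of 5 and was 8.21 without the highest window, and the 7.99 of ITS1 with a median of 5 and 4.77. With windows of 50 nucleotides the highest 18S mean was 82.7 in place of 44.4. With a minimum of 10 hits C572, at 47.4%, replaced U335 as the nucleotide with the highest rate. Leaving out a replicate was not possible with 1 library. No paired analysis was possible because there was 1 condition and 1 library. About 298 cDNAs on the 18S rRNA and 46.8 on ITS1 limit every value.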

Other observations

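The 18S rRNA carries many modified nucleotides, which small nucleolar RNAs and single enzymes place during its assembly. The RefSeq notes of these genes give 34 positions, 4 of them as predicted, and their values were looked at after the deletions were known. Of the 34, 30 had at least 1 hit, with a median of 5, and 2 had at least 20, the pseudouridines U120 with 23 hits and U302 with 82. U302, guided by SNR49, lies inside the highest peak of the 18S rRNA and had 0 deletions, which allows a rate of up to 3.66%. The 17 sites of 2′-O-methylation had 0 deletions in 112 hits together, which allows up to 2.68%. One of them, U578, lies in the loop of helix 18 with 19 hits, 6 nucleotides from C572. Only U632, a pseudouridine guided by SNR161, had a deletion, 1 in 5 hits. This is 1 of the 30 covered positions, beside 43 of 1541 covered nucleotides (2.79%) in the whole 18S rRNA. The 34 positions together had 1 deletion in 305 hits, beside the pooled 18S rate of 0.473%. Counts this small do not set the modified positions apart. U335 lies 33 nucleotides from the nearest of the 34 positions, and U1361 lies 54 from it.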
